A study of Macaca fascicularis with 6 samples.

Results

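Corneal epithelium taken a day after injury was compared with uninjured corneal epithelium in wild-type cynomolgus monkeys (Macaca fascicularis). The comparison took 4 of the 6 samples of the study: 2 labelled uninjured (day 0) and 2 labelled day 1 after corneal injury, each a droplet library of single cells made into full-length cDNA and read with HIT-scISOseq, a long-read method. Counts were summed over all cell barcodes of a sample, and the 2 groups were compared over all genes. The 2 day 3 samples entered the same model so that the spread between samples could be estimated from 3 pairs. The labels give the genotype as WT for every sample and name no age, no method or size of injury and no animal, so it is not known whether both samples of a group are from the same animal. The p-values cover the spread among the 6 libraries and nothing beyond it. Uninjured epithelium gave 1565 and 1417 barcodes, with 4230920 and 4807470 counts in all. Epithelium of day 1 gave 1482 and 1267, with 4927948 and 3733302 counts. The median count per barcode was 2461 and 3020 in the uninjured samples and 3258 and 2931 at day 1.

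The corneal epithelium is a stratified sheet renewed from basal and limbal progenitor cells. After a wound, cells at the edge flatten, loosen their anchors to the basement membrane, move over the bare stroma and later divide. Proteases and their inhibitors, new integrins and laminins, and signals from growth factors and gp130 cytokines are known parts of this response, and migrating cells are known for high protein synthesis.

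The libraries held epithelial RNA in both groups. The 9 corneal epithelial markers, among them KRT12, KRT3 and ALDH3A1, summed to 33400.7 and 33103 CPM in the uninjured samples and to 32150.2 and 34259 CPM at day 1. CPM stands for counts scaled to the library size after adjustment by the trimmed mean of M-values (TMM). The TMM factors were 1.188 and 1.195 uninjured and 0.922 and 0.966 at day 1, so the closeness of these sums rests on the scaling. In thinned barcodes (thinning is explained below) the mean count of the set was 35.4 and 35.4 uninjured and 29.5 and 32.7 at day 1. The median went the other way, from 27 and 28 to 32 and 36. Of these markers 3 rose and 3 fell, beside 30.6% and 31.8% of all genes in the test described below. Barcodes with at least 3 markers of another cell type were rare: 6 keratocyte-like, 5 immune-like and 2 melanocyte-like barcodes in the 4 samples together, too few to give a background share of barcodes with a count. The 7 tested keratocyte and fibroblast markers, mostly DCN by count, summed to 567.5 and 431.7 CPM uninjured and 209.4 and 196.5 CPM at day 1, and the 5 conjunctival and goblet cell markers to 2885 and 3296 CPM uninjured and 3701 and 3455 CPM at day 1. Of these 5, 4 rose, among them MUC1 from 8.37 and 8.20 CPM to 109 and 100.5 CPM (12.6-fold, adjusted p = 6.34e-10) and KRT7 from 5.38 and 6.11 CPM to 53.3 and 54.9 CPM (9.43-fold, adjusted p = 4.12e-09). KRT19, the member with the highest count, fell 1.22-fold (adjusted p = 0.00754; 0.0761 without uninjured replicate 2). The higher sums of the conjunctival and goblet cell set at day 1 rest on the scaling and were not seen per barcode. Thinned barcodes held a mean of 3.204 and 3.493 counts of the set uninjured and 2.507 and 2.496 at day 1. The share with a count of the set was 54.3 and 56.75% uninjured and 33.76 and 33.98% at day 1. DCN was seen in 40.4 and 37.002% of thinned uninjured barcodes. The defining keratocyte markers KERA, LUM, COL1A2 and COL3A1 were in neither uninjured table and had at most 6 counts in a day 1 sample. Of 10 neutrophil markers only 2 were in the tables, with too few counts for a test, and of 6 red blood cell markers 0 were. These 2 cell types could therefore not be assessed. The part of these other cell types in the results below was not tested. In summed counts, fewer cells of a type and less RNA per cell cannot be told apart.

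A large share of the transcriptome differed between the groups. Of 12290 genes tested, 7667 (62.4%) passed an adjusted p of 0.05 in edgeR's quasi-likelihood test, 3755 (30.6%) of them higher at day 1 and 3912 (31.8%) lower. Against a change of 2-fold, 2010 genes (16.4%) passed, 958 higher (7.79%) and 1052 lower (8.56%). These percentages are the background for every family below: a family with about 30.6% of its members risen and 31.8% fallen did what the genes did as a whole. The balance of the directions rests on the scaling. With TMM the median log2 change of all genes was -0.06 and 49.0% of the calls were higher. With library totals alone the median was -0.40 and 29.1% were higher. With every barcode weighted equally the median was -0.34 and 31.2% were higher. With DESeq2 55.1% of the calls were higher. Of the 12290 genes, 20.6% were higher and 16.5% lower with DESeq2, and 19.4% and 47.3% with library totals alone. With barcodes weighted equally these shares were 19.7% and 43.5%. They are the background for counts of members given below under those settings. The genes named below by rule were chosen among those whose groups do not overlap, so that their separation is a description and no finding. A family's median log2 change is given below on the TMM scale, beside the -0.06 of all genes.

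**Figure D1:**
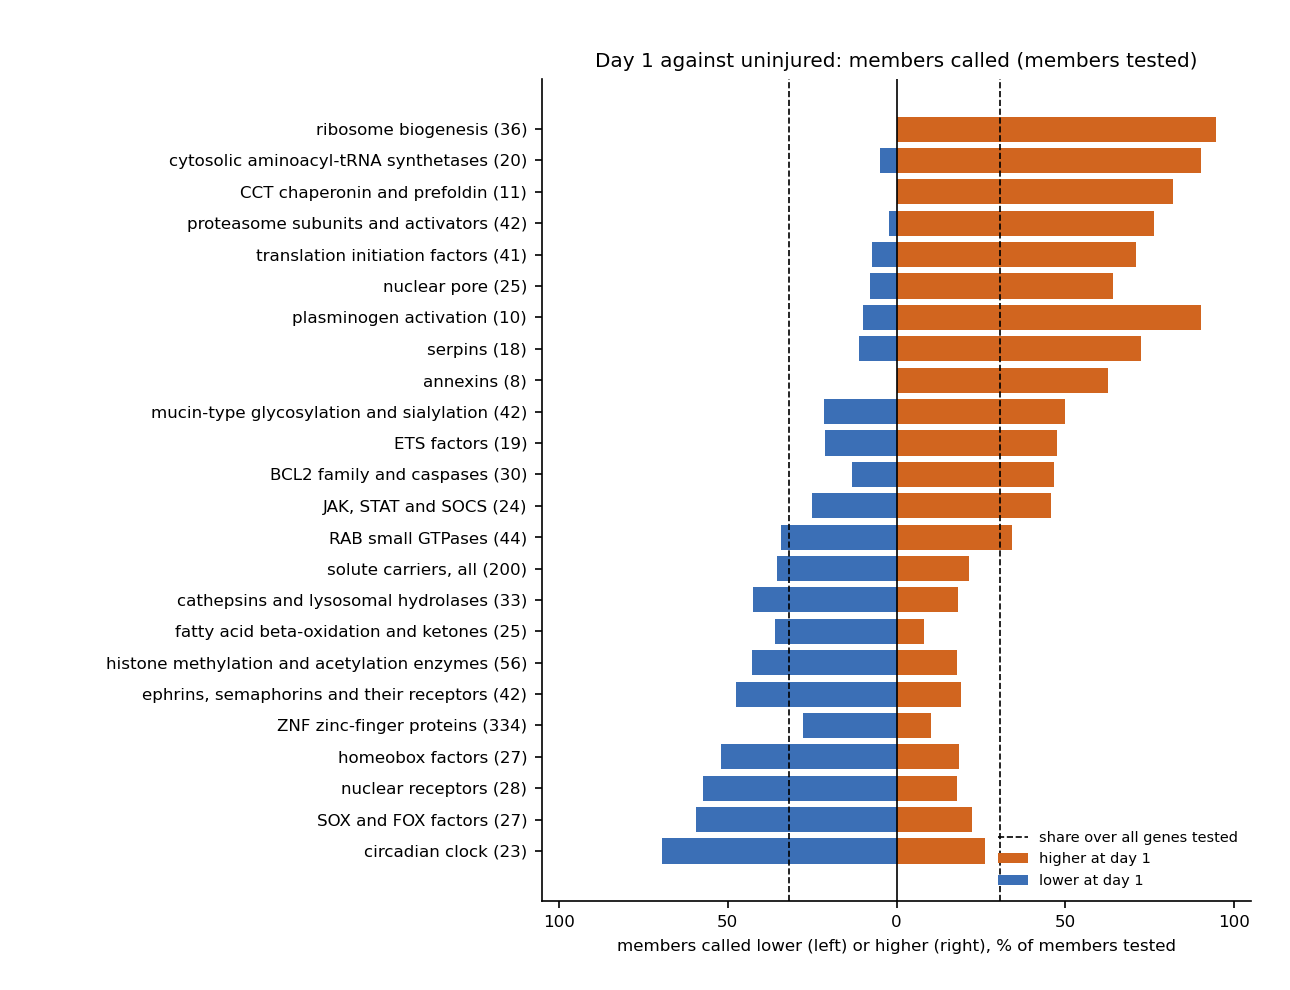
Share of the tested members of 24 gene families that were called higher (orange, to the right) or lower (blue, to the left) at day 1 against uninjured, in percent, with the number tested in brackets. Dashed lines mark the shares over all genes tested, 30.6% higher and 31.8% lower. Families of ribosome assembly, tRNA charging, protein folding and protease control extend past the line on the right, and clock genes, nuclear receptors and SOX, FOX and homeobox factors past the line on the left.

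A small set of genes went from being seen in a minority of barcodes to being seen in most. To compare cells of unlike depth, each barcode was thinned to 1000 counts, and the expected share of barcodes that still held at least 1 count of a gene was taken. With no background share at hand, these are shares of barcodes with a count, not of cells that express a gene, and the part of free RNA in them was not tested. Barcodes under 1000 counts were left out (77 and 69 in the uninjured samples, 81 and 125 at day 1). Of the 3755 genes that rose, 111 (2.96%) were seen in at least 50% of barcodes in both day 1 samples, beside 1.57% of all genes tested. Of these 111, 31 had been under 50% in both uninjured samples, 9 of them under 25%. The 111 genes include 20 with a ribosomal protein symbol and 34 with an Ensembl identifier alone. By contrast 2685 of the risen genes (71.5%) were seen in under 10% of barcodes in both day 1 samples, beside 85.5% of all genes tested.

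Cathepsin L (CTSL), a lysosomal cysteine protease that some cells also secrete, was at 83.9 and 73.6 CPM in the uninjured samples and at 2613 and 2700.3 CPM at day 1, a 33.7-fold rise (log2 change 5.08, SE 0.098, adjusted p = 1.45e-11). Its thinned share went from 8.93 and 8.88% of barcodes to 79.8 and 81.9%, and without thinning from 21.7 and 23.99% to 92.9 and 92.3%. The groups lie far apart, and at day 1 most barcodes had a count of CTSL. APOBEC3A, a cytidine deaminase that acts on single-stranded nucleic acid, was at 463 and 483 CPM uninjured and 14211 and 14339 CPM at day 1, 30.2-fold higher (log2 change 4.92, SE 0.084, adjusted p = 1.33e-11). It had a thinned share of 11.3 and 14.4% against 74.2 and 75.5% and an unthinned share of 17.9 and 24.3% against 84.2 and 83.03%. SERPINB1, an inhibitor of neutrophil elastase and related proteases, rose from 137 and 173 CPM to 3252 and 3463 CPM, 21.6-fold (log2 change 4.43, SE 0.11, adjusted p = 1.14e-10). Its thinned share went from 11.4 and 13.8% to 76.2 and 79.002% (unthinned, from 23.6 and 32.3% to 87.4 and 85.7%). In each of the 3 genes the 2 samples of a group were close to each other. CTSL and APOBEC3A have close relatives, and how reads shared by relatives were assigned is not given in the sources used here.

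Others of this kind were a collagen receptor subunit, a phosphatase, a protease inhibitor and a tubulin. ITGA2, the alpha-2 integrin subunit that binds collagen, was at 186 and 177 CPM uninjured and 1445 and 1396 CPM at day 1 (7.84-fold, adjusted p = 2.23e-10), with thinned shares of 19.1 and 19.6% against 60.3 and 60.8%. SERPINB5, the serpin called maspin, was at 194 and 208 CPM against 1146 and 1089 CPM (5.55-fold, adjusted p = 7.00e-10), seen in 19.1 and 19.4% against 62.7 and 61.3% of thinned barcodes. PTP4A1, a membrane-bound protein tyrosine phosphatase, was at 150.05 and 163 CPM against 939 and 923 CPM (5.95-fold, adjusted p = 5.94e-10), and seen in 15.4 and 15.9% against 50.5 and 51.5%. All 3 crossed from under 25% of the barcodes to more than 50%. TUBA1C, an alpha-tubulin, rose 5.02-fold (18.3 and 18.4% against 54.5 and 54.8%), and CSTB, the cystatin that inhibits cysteine cathepsins, 4.84-fold (45.8 and 45.97% against 71.3 and 69.4%). Without thinning, ITGA2 was seen in 36.6 and 43.2% against 84.7 and 82.7% of barcodes, SERPINB5 in 40.7 and 45.2% against 87.9 and 84.5%, PTP4A1 in 32.9 and 38.6% against 78.5 and 75.6%, TUBA1C in 38.7 and 44.6% against 85.4 and 81.1% and CSTB in 68.6 and 72.5% against 86.3 and 80.1%.

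Fewer genes went from most barcodes to a minority. Of the 3912 genes that fell, 32 (0.818%) had been seen in at least 50% of barcodes of both uninjured samples, beside 1.57% of all genes tested. Of these 32, 24 were under 50% in both day 1 samples, 8 of them under 25%. CSRP2, a LIM-domain protein of the actin cytoskeleton and nucleus, was at 1957 and 1831 CPM uninjured and 291 and 266 CPM at day 1, 6.80-fold lower (log2 change -2.76, SE 0.087, adjusted p = 4.50e-10). Its thinned share was 75.9 and 76.1% against 23.002 and 22.4% (unthinned, 93.04 and 93.9% against 50.3 and 45.3%). EPAS1, which encodes the hypoxia-inducible factor HIF-2alpha, was at 605 and 589 CPM against 199.7 and 174 CPM, 3.19-fold lower (adjusted p = 1.58e-08). It had thinned shares of 50.5 and 50.2% against 17.7 and 16.6% (unthinned, 76.1 and 79.3% against 38.7 and 35.4%). After thinning, both genes had a count in most uninjured barcodes and in a minority at day 1. ATF3, a stress-induced bZIP factor, fell 2.72-fold from 1042 and 1038 CPM to 394 and 369.6 CPM (adjusted p = 2.92e-08), and BTG2, an antiproliferative transcriptional cofactor, 2.35-fold from 801 and 787 CPM to 335 and 340.2 CPM (adjusted p = 7.11e-08). MT1X, a metallothionein that binds zinc and copper, fell 3.19-fold (adjusted p = 1.57e-05). The 2 day 1 samples differed more for it than for the other 4 of these genes, at 561 and 326 CPM, both under the 1471 and 1357 CPM of the uninjured samples.

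**Figure D2:**
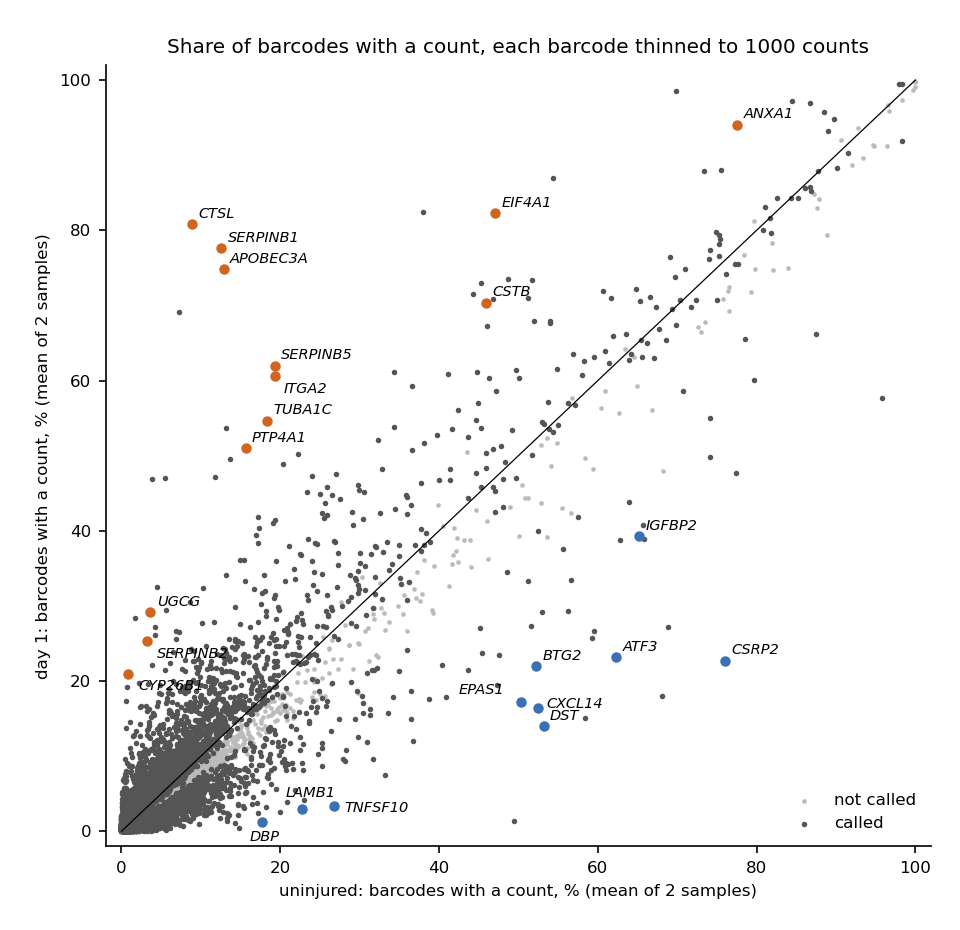
Share of barcodes with at least 1 count of each tested gene after thinning to 1000 counts, in percent, as the mean of the 2 uninjured samples (horizontal) and of the 2 day 1 samples (vertical). Dark points passed edgeR's test, grey points did not, orange and blue points are named genes that rose and fell, and the line marks equal shares. CTSL, SERPINB1 and APOBEC3A stand at the upper left, seen in under 15% of uninjured and over 74% of day 1 barcodes, and CSRP2, ATF3, EPAS1 and DST lie below the line.

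Some strong rises were held by few barcodes. A gene was counted as held by few where its mean was at least 0.05 counts per thinned barcode and the share of barcodes with a count was under 50% of what that mean would give if spread evenly. Of 1910 risen genes with such a mean 17 met this (0.890%), and of 916 fallen genes 3 (0.328%). Over all genes tested it was 22 of 3553 (0.619%). SERPINB2, an inhibitor of plasminogen activators, was at 44.2 and 54.3 CPM uninjured and 1085 and 1102 CPM at day 1, 22.2-fold higher (log2 change 4.47, SE 0.11, adjusted p = 7.43e-11). Yet only 24.9 and 25.7% of thinned day 1 barcodes held it, beside 2.84 and 3.57% uninjured (unthinned, 38.9 and 37.5% beside 6.13 and 8.68%). TIMP1, an inhibitor of matrix metalloproteinases, rose from 51.6 and 48.5 CPM to 482 and 405 CPM (8.87-fold, adjusted p = 6.34e-10) with 15.04 and 14.7% of thinned barcodes against 7.01 and 7.88%. MMP1, an interstitial collagenase, rose from 50.2 and 47.8 CPM to 762 and 591 CPM (13.8-fold, adjusted p = 1.004e-09) with 23.1 and 19.8% against 5.43 and 5.65%. SLC6A14, a transporter of neutral and cationic amino acids, rose from 68.7 and 86.9 CPM to 689.6 and 687 CPM (8.84-fold, adjusted p = 6.63e-10), with 18.5 and 18.3% against 4.20 and 5.22% of barcodes. These rises were at least as large in the summed counts as those of ITGA2 or SERPINB5, but no more than 25.7% of the thinned barcodes in a sample carried them. Without thinning the day 1 shares were 24.6 and 23.4% for TIMP1, 33.2 and 27.4% for MMP1 and 24.5 and 22.9% for SLC6A14, beside 13.6 and 15.9%, 8.82 and 9.03% and 7.60 and 10.5% uninjured. The extreme was the secretoglobin SCGB3A1, a secreted protein of airway and other mucosal epithelia: it had 0 and 3 counts in the uninjured samples and 1266 and 372 counts at day 1 (a ratio of the scaled sums of 721, with a 95% counting interval from 246 to 3500 that covers counting error only). With day 1 replicate 1 alone the ratio was 999.9, and with replicate 2 alone 369.9. The day 1 counts lay in 70 and 29 barcodes, with up to 550 and 257 counts in a single barcode.

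Genes for making ribosomes and proteins rose together. Of 36 tested genes of ribosome biogenesis, nucleolar factors that process and fold ribosomal RNA together with their activator MYC, 34 rose (94.4%, beside 30.6% of all genes), 21 of them by more than 2-fold in the 2-fold test, and NHP2 and MYC did not pass. The median log2 change was 1.39. DDX21, a nucleolar RNA helicase, was at 51.01 and 41.9 CPM uninjured and 211 and 189 CPM at day 1 (4.31-fold, adjusted p = 1.54e-08). UTP4, of the small-subunit processome, went from 11.2 and 11.2 CPM to 64.6 and 51.9 CPM (5.22-fold, adjusted p = 2.53e-07), and NOP16 from 34.9 and 30.4 CPM to 133 and 135 CPM (4.11-fold, adjusted p = 7.84e-09). The nucleolar proteins GNL3 and NCL rose 3.42-fold and 2.54-fold. MYC itself stood at 295 and 328 CPM uninjured and 293 and 271 CPM at day 1 (log2 change -0.14, SE 0.083, adjusted p = 0.153), though with library totals alone it passed as lower, at a log2 change of -0.48. In barcodes thinned to 1000 counts, the family gave a mean of 2.26 and 2.31 counts per barcode uninjured and 4.34 and 4.32 at day 1, and the barcodes above the uninjured median were 40.99 and 41.5% and 70.7 and 69.4%.

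The steps that follow moved the same way. Of 41 translation initiation factors, 29 rose and 3 fell (median log2 change 0.59; 22 and 7 with library totals alone). EIF4A1, the RNA helicase of the cap-binding complex, was at 541 and 555 CPM uninjured and 1901 and 1975 CPM at day 1 (3.54-fold, adjusted p = 4.13e-09), with thinned shares of 46.3 and 47.9% and 81.5 and 83.1% (unthinned, 73.2 and 79.4% and 95.4 and 93.8%). EIF4EBP1, which binds and restrains the cap-binding protein, also rose, from 14.3 and 15.7 CPM to 58.8 and 59.7 CPM (3.94-fold, adjusted p = 2.79e-08), as did the cap-binding protein EIF4E itself (2.29-fold, adjusted p = 1.96e-07). Thinned barcodes held a mean of 7.40 and 7.34 counts of initiation factors uninjured and 11.1 and 11.4 at day 1. At day 1 81.4 and 84.2% of barcodes were above the uninjured median, beside 44.7 and 44.4% of the uninjured. Most day 1 barcodes thus held more of these factors together than the middle uninjured barcode did.

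Of the 20 cytosolic aminoacyl-tRNA synthetases, which load amino acids onto tRNAs, 18 rose. VARS1 did not pass and QARS1 fell 1.24-fold (adjusted p = 0.00579), a call that DESeq2 did not make (adjusted p = 0.139). WARS1, the tryptophan enzyme, had the largest rise, from 27.3 and 22.3 CPM to 108 and 101 CPM (4.22-fold, adjusted p = 1.54e-08), followed by the glycine enzyme GARS1 at 3.94-fold (adjusted p = 9.65e-08). With library totals alone 12 synthetases rose (60%, beside 19.4% of all genes), and with DESeq2 13 (65%, beside 20.6%). Among the 11 tested subunits of the CCT chaperonin and of prefoldin, which fold actin and tubulin, 9 rose. PFDN6 and PFDN1 did not pass (with library totals alone PFDN1 was lower, adjusted p = 0.0106, and without day 1 replicate 2 PFDN6 was higher, adjusted p = 0.00450). PFDN2 rose 2.49-fold and CCT2 2.17-fold. Of 42 proteasome subunits and activators, 32 rose and 1 fell, mostly by less than 2-fold (4 passed the 2-fold test), with PSMD12 of the regulatory lid at 67.2 and 69.3 CPM uninjured and 283 and 283 CPM at day 1 (4.15-fold, adjusted p = 1.19e-09). Of the 61 mitochondrial ribosomal proteins 33 rose and 6 fell with TMM (54.1% and 9.84%), and 18 and 21 with library totals alone. Which direction had more calls thus rested on the scaling. With library totals alone the shares were 29.5% and 34.4%, beside 19.4% and 47.3% of all genes. Set against all genes, the family leaned upward with both scalings.

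**Figure D3:**
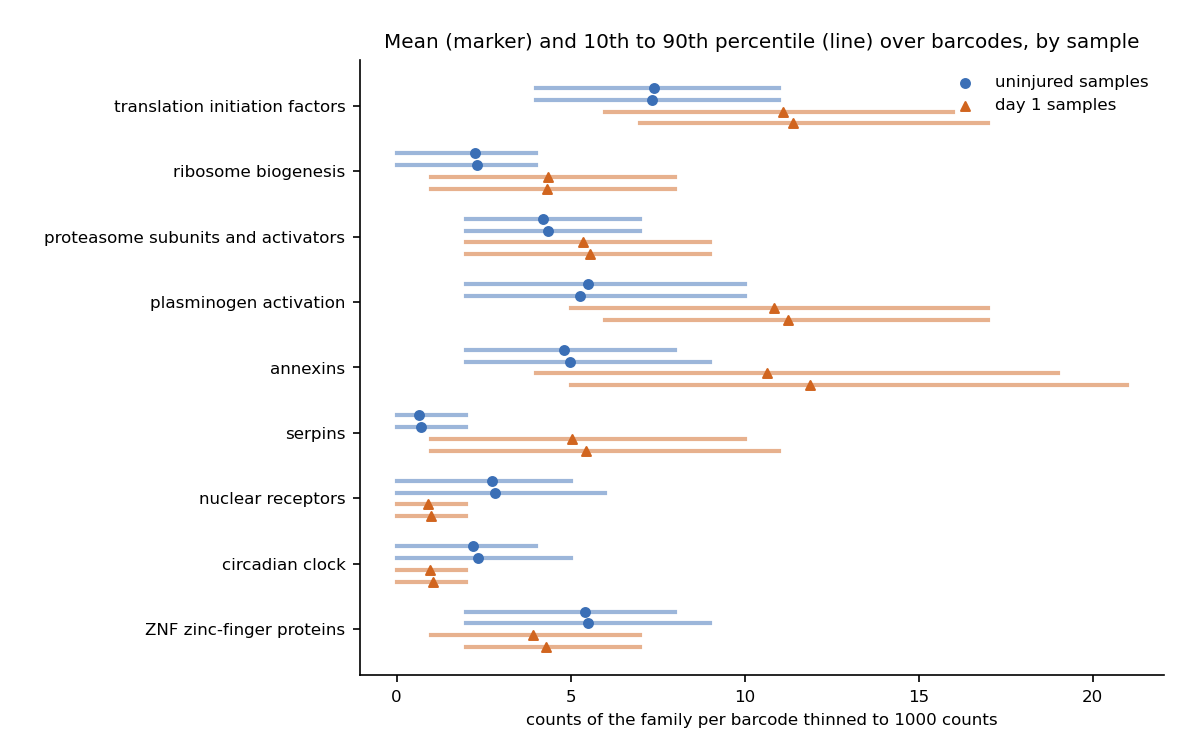
Counts of 9 gene families per barcode thinned to 1000 counts, as the mean (marker) and the range from the 10th to the 90th percentile (line) over the barcodes of each sample. Blue circles are the 2 uninjured samples and orange triangles the 2 day 1 samples. Ribosome biogenesis, initiation factors, plasminogen activation, annexins and serpins shift to higher counts at day 1 and clock genes and nuclear receptors to lower counts, and the 2 samples of each group lie close together.

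Amino acid supply changed in an uneven way. Of 20 amino acid transporters 9 rose (45%) and 4 fell (20%). With library totals alone 6 rose and 7 fell (30% and 35%, beside 19.4% and 47.3% of all genes). Set against all genes, the family leaned upward with both scalings. SLC1A5, a glutamine carrier, was at 4.58 and 2.79 CPM uninjured and 32.6 and 35.5 CPM at day 1 (9.24-fold, adjusted p = 9.12e-08). The carriers of arginine and lysine split: SLC7A1 rose from 37.1 and 35.4 CPM to 115 and 107 CPM (3.06-fold, adjusted p = 6.51e-08) and SLC7A2 fell from 33.3 and 34.02 CPM to 1.32 and 1.66 CPM (22.5-fold lower, adjusted p = 1.07e-08). Neither gene overlapped between the groups, which is a description only. The 200 solute carriers as a whole (43 risen, 21.5%, and 71 fallen, 35.5%) and the 44 RAB small GTPases (15 each way, 34.1%) lay nearer the background.

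Activators of the plasminogen system and their inhibitors rose together. Plasmin, made from plasminogen by the activators uPA (PLAU) and tPA (PLAT), breaks down fibrin and matrix, and PLAUR holds uPA at the cell surface. Of 10 tested genes of the system 9 rose and PLGRKT fell (1.22-fold, adjusted p = 0.0101; 0.125 with DESeq2, 0.0501 without day 1 replicate 2 and 0.0621 without uninjured replicate 1). PLAUR was at 16.3 and 19.2 CPM uninjured and 248 and 276 CPM at day 1 (14.8-fold, log2 change 3.87, SE 0.13, adjusted p = 6.25e-10), in 1.76 and 1.85% against 12.9 and 13.9% of thinned barcodes. PLAU was at 54.6 and 53.9 CPM against 454 and 507 CPM (8.86-fold, log2 change 3.15, SE 0.092, adjusted p = 2.84e-10), in 5.57 and 5.67% against 27.9 and 31.03%. Without thinning PLAUR was in 4.47 and 5.79% against 24.4 and 24.9% of barcodes and PLAU in 13.7 and 17.2% against 50.5 and 49.5%. PLAT rose 3.96-fold (adjusted p = 1.45e-08). The activators and their receptor rose beside their inhibitors SERPINB2 (above) and SERPINE2 (2.72-fold). The plasminogen receptor pair ANXA2 and S100A10 rose 2.14-fold and 3.37-fold. Thinned barcodes above the uninjured median of the whole set were 42.9 and 39.4% uninjured and 87.7 and 90.7% at day 1. The set summed to 4887 and 4783 CPM uninjured and 11631 and 11535 CPM at day 1. Most of this came from members other than PLAU, PLAUR, PLAT and SERPINB2. The shift per barcode therefore does not show that the activators rose in most barcodes.

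Among 18 tested serpins 13 rose and 2 fell (median log2 change 0.98; 10 and 3 with library totals alone). Thinned barcodes held 0.651 and 0.705 serpin counts on average uninjured and 5.05 and 5.44 at day 1, and 94.9 and 93.96% of day 1 barcodes were above the uninjured median, beside 42.6 and 46.8% of uninjured ones. SERPINA3, an inhibitor of chymotrypsin-like proteases, was at 0.399 and 1.57 CPM uninjured and 99.6 and 65.8 CPM at day 1 (84.01-fold, adjusted p = 3.19e-08), but in only 4.37 and 3.10% of thinned day 1 barcodes (7.49 and 5.45% unthinned). The size of this fold rests on few uninjured counts: the fitted log2 change of SERPINA3, 6.32, was 5.71 without uninjured replicate 1 and 7.62 without uninjured replicate 2. SERPINB11 was in neither uninjured table and at 17.6 and 16.1 CPM at day 1. Since the tables list few genes seen in under 5 barcodes, an unlisted gene was given 5 counts per library for a bound, which makes it at least 18.2-fold higher. Of the 2 serpins that fell, SERPINH1, a chaperone of collagen, was 1.64-fold lower (adjusted p = 0.0189; 0.165 with DESeq2, 0.0677 without day 1 replicate 2 and 0.155 without uninjured replicate 1). The other, SERPINB13, at 0.996 and 1.40 CPM uninjured and in neither day 1 table, turned to a log2 change of 0.0402 with no call when unlisted genes were given 5 counts. In RefSeq's annotation of the assembly T2T-MFA8v1.1, 8 serpin B genes stand in 1 run with 2 other genes between them, and 5 of the 8 were tested.

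The kallikreins, secreted serine proteases of stratified epithelia, are also neighbours: RefSeq lists 15 in 1 run on the same assembly. The 5 that could be tested all rose, among them KLK13 from 3.19 and 4.36 CPM to 39.7 and 33.6 CPM (9.70-fold, adjusted p = 4.35e-08) and KLK10 from 5.98 and 6.80 CPM to 46.1 and 40.2 CPM (6.75-fold, adjusted p = 3.20e-08). KLK12 was listed in 1 day 1 sample alone, and its call was lost with DESeq2 (adjusted p = 0.0603), library totals alone (0.0533), no low-count filter (0.0589), barcodes weighted equally (0.143) and unlisted genes given 5 counts (0.0811). Its call was also lost without day 1 replicate 2 (log2 change 0) and without either uninjured replicate (0.129 and 0.145). With barcodes weighted equally 3 of the 5 rose. These genes were seen in few barcodes, with KLK13 in 2.36 and 1.98% of thinned day 1 barcodes (6.48 and 4.50% unthinned). Of 11 ADAM and ADAMTS proteases, which shed membrane proteins or cut matrix, 7 rose (63.6%) and 1 fell (9.09%). With DESeq2 4 rose (36.4%, beside 20.6% of all genes) and 0 fell. ADAMTS1 went from 11.96 and 11.3 CPM to 52.01 and 42.7 CPM (4.07-fold, adjusted p = 2.97e-07), and the shedding protease ADAM17 from 30.5 and 30.2 CPM to 61.5 and 56.6 CPM (1.95-fold, adjusted p = 5.49e-06). CTSL stood apart from its own family: of 33 cathepsins and lysosomal hydrolases 6 rose (18.2%) and 14 fell (42.4%). With library totals alone 4 rose and 24 fell (12.1% and 72.7%, beside 19.4% and 47.3% of all genes). With DESeq2 5 moved each way (15.2%, beside 20.6% higher and 16.5% lower of all genes), so the excess of falls was not seen there. CTSL was the single member past the 2-fold test upward. The aspartic protease CTSD fell from 329 and 346 CPM to 189 and 193 CPM (1.77-fold, adjusted p = 4.59e-06). CTSV, the closest relative of CTSL, rose 1.41-fold (adjusted p = 1.28e-04; 0.0979 with library totals alone). Of 8 annexins, which bind membranes in the presence of calcium, 5 rose, with ANXA1 at 1609.9 and 1756 CPM uninjured and 6517 and 6964 CPM at day 1 (4.01-fold, adjusted p = 2.13e-09) and ANXA5 4.54-fold higher (adjusted p = 1.12e-09).

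**Figure D4:**
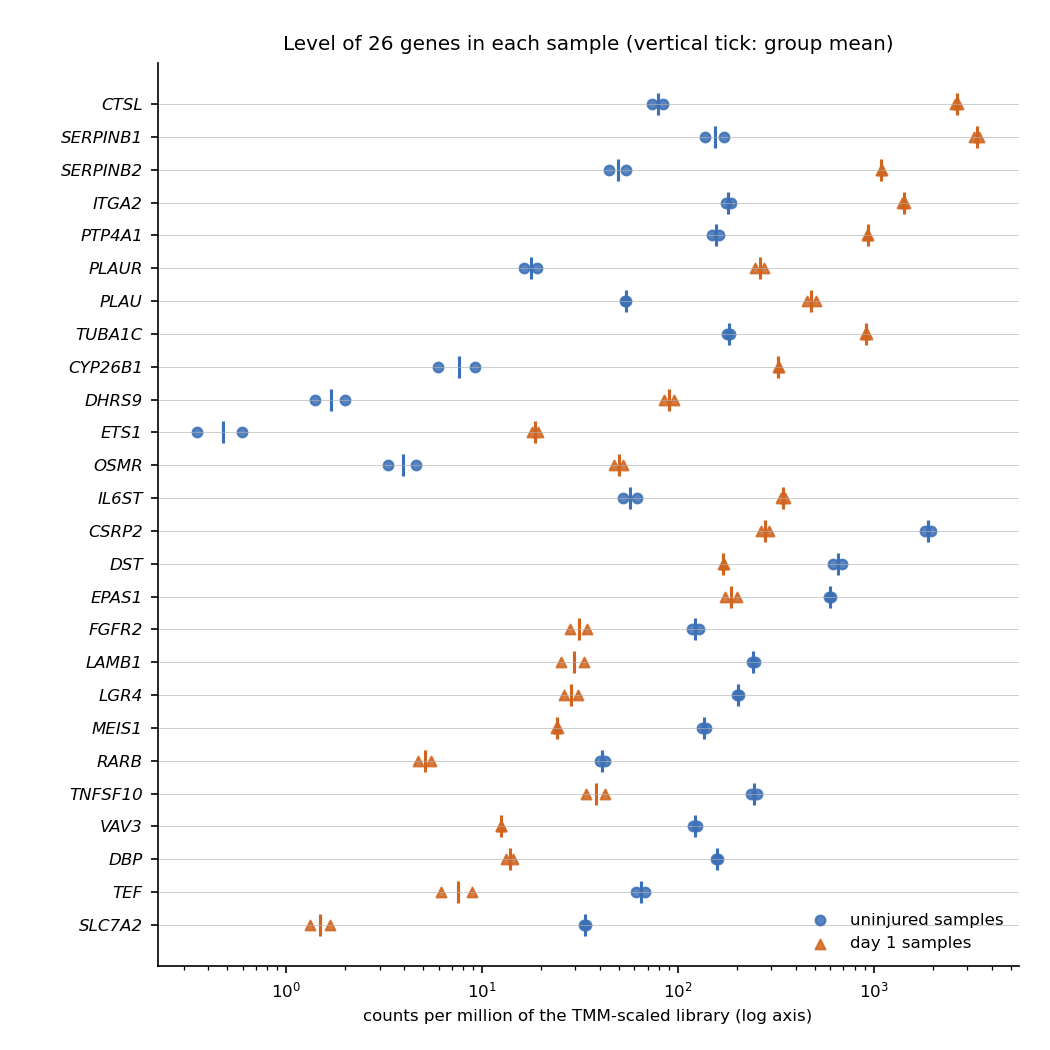
Level of 26 named genes in each of the 4 samples, in CPM of the TMM-scaled library on a log axis. Circles are the uninjured samples, triangles the day 1 samples and vertical ticks the group means. The 26 genes were chosen among called genes whose groups do not overlap, so their separation is a description. The upper 13 were higher at day 1, CTSL among them, and the lower 13 lower.

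Of 9 tested genes that anchor the epithelium to its basement membrane 6 rose (66.7%) and 2 fell (22.2%), and 3 rose and 3 fell with library totals alone. Their summed counts did not rise. Thinned barcodes held 2.60 and 2.58 counts of the set on average uninjured and 2.12 and 2.18 at day 1. At day 1 30.2 and 32.1% of barcodes were above the uninjured median, beside 43.4 and 42.4% of the uninjured. LAMA3 and LAMB3 encode chains of laminin-332, and hemidesmosomes tie this laminin through integrin alpha-6 beta-4 to the plakins DST and PLEC. LAMA3 rose from 88.1 and 82.5 CPM to 242 and 243 CPM (2.84-fold, adjusted p = 2.04e-08) and LAMB3 by 1.53-fold (adjusted p = 0.0166). The call of LAMB3 was lost with DESeq2 (adjusted p = 0.190), with library totals alone (0.275), without day 1 replicate 2 (0.137) and without uninjured replicate 1 (0.104). Another laminin chain, LAMB1, fell from 239 and 247 CPM to 25.3 and 33.3 CPM (8.29-fold, log2 change -3.07, SE 0.12, adjusted p = 2.23e-09). LAMA3 and LAMB3 rose by unlike amounts while LAMB1 fell. DST fell from 689 and 621 CPM to 169 and 172 CPM (3.84-fold, adjusted p = 4.81e-09). Its thinned share went from 54.1 and 52.3% to 13.8 and 14.3% (unthinned, from 79.1 and 80.9% to 31.7 and 29.9%). PLEC rose 1.61-fold (adjusted p = 8.58e-06). ITGA6 and ITGB4 were only 1.18-fold and 1.26-fold higher (adjusted p = 0.0154 and 0.00355). With library totals alone both changes turned to log2 values of -0.0945 and -0.0028 with no call. ITGA6 also lost its call without either uninjured replicate (adjusted p = 0.0743 and 0.0723). COL17A1 was at 391 and 382 CPM uninjured and 366 and 397 CPM at day 1 (adjusted p = 0.835; lower by a log2 change of -0.36 with library totals alone, adjusted p = 0.00258).

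Among genes of cell contacts and the cytoskeleton, 4 of 5 connexins and pannexins rose. Of 26 genes of Arp2/3, WAVE and actin capping, which build and cap branched actin, 15 rose (57.7%) and 2 fell, and 10 rose and 5 fell with library totals alone. Of 21 myosins 9 rose and 4 fell, of 13 tubulins 5 and 4, and of 6 septins 4 and 1. The counts by library totals alone were 7 and 7, 5 and 7, and 1 and 2, so the excess of rises in these 3 families rests on the scaling. These counts are 33.3% and 33.3%, 38.5% and 53.8%, and 16.7% and 33.3%. They stand beside 19.4% higher and 47.3% lower of all genes with library totals alone. GJB2, whose channels join neighbouring keratinocytes, rose 2.18-fold (adjusted p = 4.61e-06). GJB6 fell 1.23-fold (adjusted p = 0.0135; 0.184 with DESeq2, 0.0956 without day 1 replicate 1 and 0.103 without uninjured replicate 1). PANX1, a channel that releases ATP, rose 3.59-fold (adjusted p = 2.92e-06). MYO1E, a class I myosin that binds membranes, rose 3.70-fold. MYH14, a non-muscle myosin heavy chain, fell 1.53-fold (adjusted p = 4.40e-05). Tubulins split, TUBB6 rising 2.87-fold and TUBA4A falling 1.78-fold. VAV3, an exchange factor that activates small GTPases of the actin cytoskeleton, fell from 119 and 125 CPM to 12.6 and 12.5 CPM (9.75-fold, log2 change -3.28, SE 0.10, adjusted p = 4.74e-10).

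Particular enzymes of glycan and lipid synthesis rose, but the lipid sets as a whole showed no steady lean. Of 37 genes of ceramide and sphingolipid metabolism 15 rose (40.5%) and 9 fell (24.3%). With library totals alone 6 rose and 17 fell (16.2% and 45.9%, beside 19.4% and 47.3% of all genes). Fatty acid synthesis and desaturation was near the background, with 12 of 37 risen (32.4%) and 11 fallen (29.7%). UGCG makes glucosylceramide, the first step of most glycosphingolipids and a lipid of epithelial barriers. It was at 28.1 and 35.2 CPM uninjured and 392 and 400.4 CPM at day 1 (12.5-fold, log2 change 3.64, SE 0.10, adjusted p = 2.54e-10). B4GALT5, which acts on the product of UGCG to give lactosylceramide, rose from 50.4 and 56.3 CPM to 287 and 274 CPM (5.25-fold, adjusted p = 8.22e-10). ST3GAL5, the next enzyme toward the ganglioside GM3, fell from 4.38 and 6.98 CPM to 0.661 and 0.555 CPM (9.34-fold, adjusted p = 2.74e-04). Its day 1 levels were under the 1.23 CPM that stands for 5 counts per library, so the size of its fold rests on few counts. The log2 change of ST3GAL5 was -3.17, and -2.44 with barcodes weighted equally. Of the 42 tested enzymes of mucin-type glycosylation and sialylation, 21 rose and 9 fell, 14 and 3 of them past the 2-fold test (33.3% and 7.14%, beside 7.79% and 8.56% of all genes). With DESeq2 16 rose and 3 fell (38.1% and 7.14%, beside 20.6% and 16.5% of all genes). The conjunctival and goblet cell markers MUC1 and KRT7 rose as well (above), and their part in this was not tested. The GalNAc transferases that start O-glycans were among the risen: GALNT3, from 93.1 and 93.7 CPM to 251 and 251 CPM (2.69-fold, adjusted p = 2.04e-08), and GALNT14, from 2.19 and 2.79 CPM to 21.4 and 21.4 CPM (8.58-fold, adjusted p = 1.68e-07). The sialyltransferases split, ST3GAL1 rising 5.02-fold (adjusted p = 1.14e-08) and ST3GAL4 falling from 119.96 and 120.4 CPM to 34.4 and 38.02 CPM (3.32-fold, adjusted p = 3.63e-08).

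Some of the named genes handle or bind retinoic acid, of which no list was tested. DHRS9, a retinol dehydrogenase, was at 1.99 and 1.40 CPM uninjured and 94.99 and 84.6 CPM at day 1 (53.01-fold, log2 change 5.73, SE 0.18, adjusted p = 4.74e-10), in 4.88 and 4.94% of thinned day 1 barcodes (10.2 and 9.08% unthinned). CYP26B1, which breaks retinoic acid down, was at 5.98 and 9.25 CPM uninjured and 324 and 327 CPM at day 1 (42.7-fold, log2 change 5.39, SE 0.13, adjusted p = 1.08e-10). It was in 0.582 and 1.02% against 20.6 and 21.4% of thinned barcodes (unthinned, 1.66 and 3.03% against 36.98 and 36.1%). RARB, a retinoic acid receptor and a known target of retinoic acid, fell from 39.9 and 42.4 CPM to 5.51 and 4.72 CPM (8.04-fold, adjusted p = 2.70e-08). RARA rose 1.85-fold (adjusted p = 2.57e-04), and RARG was at 57.2 and 55.1 CPM uninjured and 48.04 and 54.4 CPM at day 1 (adjusted p = 0.243; 0.00160 with library totals alone, where it was lower).

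In gp130 signalling the receptors IL6ST and OSMR rose, and SOCS inhibitors split. IL6ST (gp130), the shared signalling chain of the interleukin 6 family, was at 61.8 and 52.2 CPM uninjured and 354 and 335 CPM at day 1 (6.05-fold, log2 change 2.60, SE 0.093, adjusted p = 1.004e-09). OSMR, its partner for oncostatin M, was at 4.58 and 3.31 CPM against 52.5 and 47.5 CPM (12.6-fold, log2 change 3.67, SE 0.17, adjusted p = 7.31e-09). SOCS3 and SOCS1, inhibitors induced by this pathway, fell 2.11-fold (from 233 and 253 CPM to 98.5 and 132 CPM, adjusted p = 8.07e-06) and 4.07-fold (from 52.6 and 50.6 CPM to 12.3 and 13.04 CPM, adjusted p = 8.79e-08). SOCS2, another member, rose from 1.79 and 2.09 CPM to 7.71 and 9.71 CPM (4.48-fold, adjusted p = 2.15e-04). STAT3 rose 1.76-fold and JAK2 1.90-fold. Over the 24 tested members of the JAK, STAT and SOCS list 11 rose and 6 fell, and 9 and 9 with library totals alone. The excess of rises over falls in the list thus rests on the scaling. With library totals alone the shares were 37.5% each way, beside 19.4% higher and 47.3% lower of all genes. Set against all genes, the list leaned upward with both scalings.

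Feedback genes of the MAP kinases split by member. DUSP5 and DUSP6, phosphatases induced by and acting on ERK, rose from 14.7 and 11.5 CPM to 107 and 100.2 CPM (7.88-fold, adjusted p = 6.77e-09) and from 49.8 and 44.3 CPM to 183 and 169.8 CPM (3.75-fold, adjusted p = 1.11e-08). DUSP16, which acts on JNK and p38, fell 2.25-fold (adjusted p = 3.01e-05), and 11 of the 23 tested members rose and 8 fell (9 each way with barcodes weighted equally). FGFR2 and FGFR3, receptor kinases for FGF ligands, were lower: FGFR2 fell from 118 and 128 CPM to 28.2 and 34.4 CPM (3.93-fold, adjusted p = 3.06e-08) and FGFR3 from 482 and 508 CPM to 272 and 279.7 CPM (1.80-fold, adjusted p = 1.79e-06). LGR4, a receptor for R-spondins that strengthens Wnt signals, fell from 199.7 and 206 CPM to 31.1 and 26.1 CPM (7.10-fold, log2 change -2.82, SE 0.098, adjusted p = 8.82e-10). It was in 19.4 and 20.6% against 2.75 and 2.31% of thinned barcodes (unthinned, 41.3 and 48.8% against 8.57 and 6.55%).

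The death ligand TRAIL and its receptors moved apart. TNFSF10, which encodes TRAIL, fell from 252 and 236 CPM to 33.9 and 42.5 CPM (6.39-fold, log2 change -2.69, SE 0.11, adjusted p = 2.79e-09). Its receptors TNFRSF10A and TNFRSF10B rose from 33.3 and 31.7 CPM to 174 and 160.4 CPM (5.15-fold, adjusted p = 1.24e-09) and from 6.78 and 7.50 CPM to 38.6 and 46.1 CPM (5.93-fold, adjusted p = 8.25e-08). Of 30 BCL2 family members, caspases and their inhibitors, 14 rose (46.7%) and 4 fell (13.3%). With library totals alone 12 rose and 9 fell (40% and 30%, beside 19.4% and 47.3% of all genes). The risen included genes that promote death, BAK1 (4.55-fold, adjusted p = 2.50e-08) and BID (3.20-fold, adjusted p = 1.34e-07), and genes that restrain it, BCL2L1 (3.61-fold, adjusted p = 1.28e-08) and CFLAR (2.53-fold, adjusted p = 5.77e-06). CASP4, an inflammatory caspase that senses bacterial lipopolysaccharide, rose from 6.58 and 6.98 CPM to 33.3 and 35.5 CPM (5.08-fold, adjusted p = 9.31e-08), and CASP6 fell 2.59-fold (adjusted p = 3.93e-07).

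Guidance cues were lower more often than higher: of 42 ephrins, semaphorins, netrins, SLITs and their receptors 20 fell (47.6%) and 8 rose (19.05%), beside 31.8% and 30.6% of all genes. SEMA4A, a transmembrane semaphorin, fell from 133.7 and 127 CPM to 20.7 and 22.2 CPM (6.07-fold, adjusted p = 1.49e-09), and its relative SEMA4B rose from 48.4 and 53.2 CPM to 187 and 185 CPM (3.66-fold, adjusted p = 4.86e-09). The ligand SLIT2 and its receptor ROBO1 fell 13.5-fold and 2.42-fold. Without day 1 replicate 1 the log2 change of SLIT2 went from -3.67 to -4.28. EPHA2, an ephrin receptor of epithelia, rose 2.18-fold (adjusted p = 8.08e-07), while its ligand EFNA1 fell 1.95-fold (adjusted p = 1.04e-06).

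Transcription factor families differed in balance. Of 19 ETS factors 9 rose, 7 of them past the 2-fold test (36.8%, beside 7.79% of all genes), and 4 fell (7 with library totals alone). ETS1 was at 0.598 and 0.349 CPM uninjured and 19.4 and 18.04 CPM at day 1 (39.5-fold, log2 change 5.25, SE 0.33, adjusted p = 8.50e-08), in 2.10 and 1.74% of thinned day 1 barcodes (5.26 and 4.42% unthinned). The uninjured levels of ETS1 were under the 0.930 CPM that stands for 5 counts per library. The size of its fold thus rests on few counts, and its log2 change was 3.41 with barcodes weighted equally. ELK3 rose 11.7-fold (adjusted p = 2.92e-08). ETV3 rose from 74.7 and 86.001 CPM to 321 and 328 CPM (4.04-fold, adjusted p = 3.60e-09), and the epithelial factor EHF 2.87-fold (adjusted p = 1.44e-08). The fallen ETS factors included all 3 of the PEA3 group, ETV4 (from 11.96 and 11.3 CPM to 1.32 and 0.832 CPM, 10.8-fold, adjusted p = 4.45e-06), ETV5 (2.89-fold, adjusted p = 2.06e-05) and ETV1 (3.03-fold, adjusted p = 0.00858), which are known targets of FGF signals. The call of ETV1 was lost with DESeq2 (adjusted p = 0.117), without day 1 replicate 1 (0.0727) and without uninjured replicate 1 (0.0642).

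SOX, FOX and homeobox factors, many of which set tissue identity, were lower on balance. Of 27 SOX and FOX factors 16 fell (59.3%) and 6 rose, and 6 of the fallen were in neither day 1 table, among them SOX2 at 6.38 and 4.71 CPM uninjured, at least 4.47-fold lower. FOXP1 fell from 97.04 and 98.6 CPM to 25.8 and 27.5 CPM (3.67-fold, adjusted p = 1.25e-08), and FOXA1, a pioneer factor, rose from 6.97 and 9.42 CPM to 31.96 and 31.1 CPM (3.84-fold, adjusted p = 9.47e-07). Of 27 homeobox factors 14 fell (51.9%) and 5 rose. MEIS1, a TALE homeobox factor, fell from 139 and 133 CPM to 23.8 and 24.4 CPM (5.65-fold, log2 change -2.50, SE 0.098, adjusted p = 2.17e-09), MEIS2 3.14-fold (adjusted p = 5.03e-08) and OTX1 3.72-fold (adjusted p = 4.79e-07). The 334 tested ZNF zinc-finger genes fell in 27.5% and rose in 10.2% of cases. Scaled by library totals alone, 48.5% fell and 5.99% rose, beside 47.3% and 19.4% of all genes. The share that rose was under the background with both scalings, and the share that fell was under it with TMM.

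Nuclear receptors, the hormone and lipid sensing factors, fell in 16 of 28 tested members (57.1%) and rose in 5, with a median log2 change of -0.86. NR4A2, an orphan receptor induced by many stimuli, fell from 379 and 399 CPM to 88.8 and 101 CPM (4.09-fold, adjusted p = 4.23e-09). The thyroid hormone receptors THRA and THRB fell 6.73-fold (adjusted p = 7.62e-05) and 2.46-fold (adjusted p = 1.75e-04), and the glucocorticoid receptor NR3C1 fell from 50.4 and 49.4 CPM to 26.7 and 24.1 CPM (1.96-fold, adjusted p = 1.04e-05). PPARD, a fatty acid sensor, went the other way, from 17.5 and 17.97 CPM to 55.5 and 51.1 CPM (3.0024-fold higher, adjusted p = 4.78e-07). Thinned barcodes held 2.73 and 2.83 counts of the family on average uninjured and 0.904 and 0.992 at day 1. At day 1 7.07 and 8.84% of barcodes were above the uninjured median, beside 48.4 and 50.1% of the uninjured.

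The circadian clock genes changed in 22 of 23 tested members, 16 downward and 6 upward. In the clock CLOCK or NPAS2 pairs with ARNTL (BMAL1) to activate the PER and CRY repressors, the NR1D receptors and the output factors DBP, TEF and HLF. The activators rose: ARNTL from 3.99 and 5.93 CPM to 36.6 and 41.1 CPM (7.83-fold, log2 change 2.94, SE 0.18, adjusted p = 8.29e-08). ARNTL2 rose 6.58-fold (adjusted p = 4.23e-05), NPAS2 1.78-fold and CLOCK 1.54-fold (adjusted p = 0.00486; 0.206 with DESeq2 and 0.151 with library totals alone). The output factors fell: DBP from 156 and 160.5 CPM to 14.3 and 13.3 CPM (11.4-fold, log2 change -3.51, SE 0.10, adjusted p = 2.84e-10). TEF fell from 67.9 and 61.4 CPM to 6.17 and 8.88 CPM (8.59-fold, adjusted p = 1.56e-08) and HLF from 220.2 and 225 CPM to 44.7 and 40.8 CPM (5.20-fold, adjusted p = 2.98e-09). The groups do not overlap for any of these genes, which was a condition for genes named by rule and so no finding.

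Among the repressors PER1, PER2 and PER3 fell 3.75-fold, 1.92-fold and 2.50-fold, NR1D1 and NR1D2 2.12-fold and 2.50-fold, CRY2 2.89-fold and BHLHE41 5.99-fold, while CRY1 rose from 36.1 and 39.4 CPM to 79.1 and 86.9 CPM (2.20-fold, adjusted p = 1.25e-06). Over the family 69.6% fell, beside 31.8% of all genes, and NFIL3, a repressor of the DBP sites, did not pass (44.04 and 44.7 CPM against 36.1 and 39.7 CPM, adjusted p = 0.0684; 5.50e-04 with library totals alone). With library totals alone 17 fell and 5 rose (73.9% and 21.7%, beside 47.3% and 19.4% of all genes). With DESeq2 13 fell and 5 rose (56.5% and 21.7%, beside 16.5% and 20.6%). DBP was seen in 17.5 and 18.01% of thinned uninjured barcodes and in 1.18 and 1.17% at day 1 (unthinned, 38.02 and 43.3% and 4.18 and 3.47%). Of day 1 barcodes 8.49 and 8.76% held more clock counts than the uninjured median, beside 37.2 and 42.1% of the uninjured. The labels give no time of day for any sample, so a difference in sampling hour and one between the groups cannot be told apart.

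**Figure D5:**
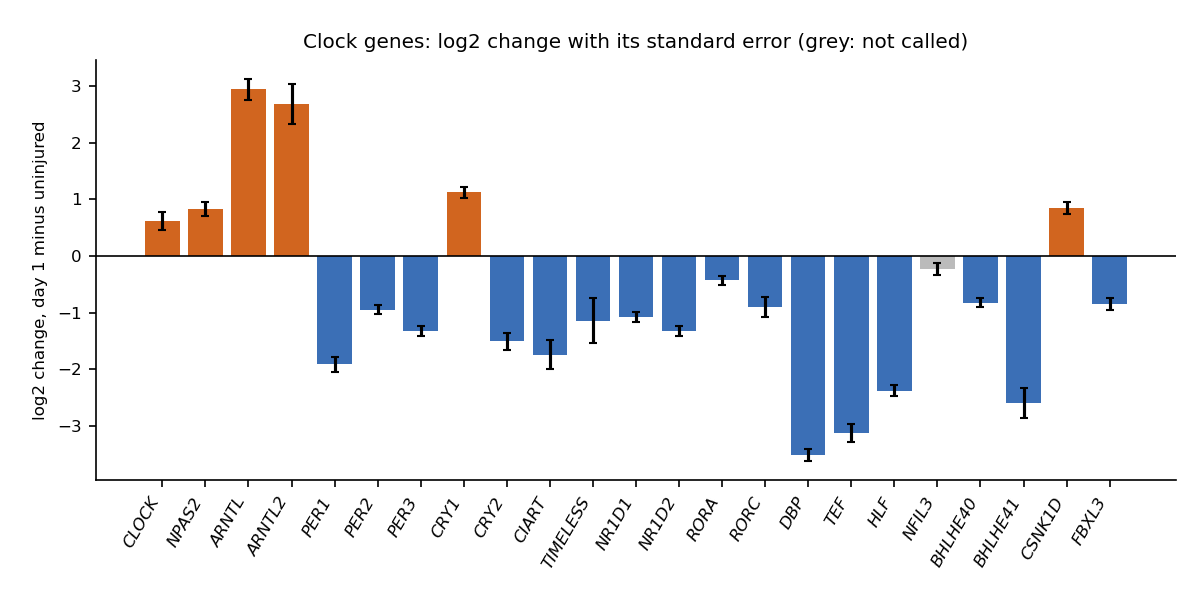
Log2 change at day 1 against uninjured of the 23 tested clock genes, as fitted by edgeR, with its standard error. Orange bars rose, blue bars fell and the grey bar (NFIL3) did not pass. The activators at the left rose, ARNTL by 2.94, and the PER genes, the NR1D receptors and the output factors DBP, TEF and HLF fell.

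Smaller metabolic sets were also counted. Of 11 tested genes of polyamine metabolism 7 rose and 2 fell: SAT1, which acetylates polyamines for export and breakdown, rose from 3214 and 3387 CPM to 6732 and 7023 CPM (2.08-fold, adjusted p = 1.66e-07). The polyamine transporter ATP13A3 rose 3.31-fold (adjusted p = 1.09e-08) and the arginase ARG2 2.73-fold (adjusted p = 3.01e-08). Genes of fatty acid oxidation and ketone use fell in 9 of 25 (36.0%, near the 31.8% of all genes) and rose in 2. With DESeq2 3 fell and 1 rose (12% and 4%, beside 16.5% and 20.6% of all genes). BDH1, a ketone body enzyme of mitochondria, was at 10.2 and 8.55 CPM uninjured and in neither day 1 table, at least 7.57-fold lower. CACNB2, a calcium channel subunit, was likewise at 18.7 and 23.4 CPM uninjured and unlisted at day 1, at least 17.3-fold lower, and the secreted phospholipase PLA2G2A was unlisted in the uninjured tables and at 27.99 and 17.2 CPM at day 1, at least 24.96-fold higher. In all, 304 genes with at least 20 counts in the uninjured libraries were in neither day 1 table, and 79 the other way round.

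Day 3 was also set against day 1. This second comparison shares the day 1 samples with the first, so the values are set side by side only. In it 3749 genes (30.5%) were higher at day 3 than at day 1 and 3543 (28.8%) lower. Of the 36 ribosome biogenesis genes 33 were lower at day 3 than at day 1 and 2 higher. DDX21 was at 40.3 and 47.6 CPM at day 3 (log2 difference from day 1 -2.19, adjusted p = 3.23e-08). Of the 42 proteasome genes 16 were higher and 6 lower than at day 1, and among the 13 homeobox genes higher than at day 1 MEIS1 was at 96.5 and 106 CPM (log2 difference 2.07, adjusted p = 2.64e-08). CTSL at 447 and 439.9 CPM, IL6ST at 76.7 and 81.7 CPM and CYP26B1 at 34.8 and 40.95 CPM were lower at day 3 than at day 1. DHRS9 at 168 and 153 CPM was higher. TEF at 8.52 and 7.11 CPM (adjusted p = 0.787) and FGFR2 at 31.8 and 37.3 CPM (adjusted p = 0.361) did not pass.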

How the data were processed

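The deposited gene tables hold whole-number counts per gene and cell barcode for each sample. Whether these counts come from long or from short reads of the libraries is not stated in the sources used here. The labels name Cell Ranger among the tools, with no version and no role; the genome build, the annotation and the way that reads shared by similar genes were assigned are not stated in the labels or the file headers. Per the values of the deposited count tables, few genes seen in under 5 barcodes of a library are listed there, so a gene absent from a table was treated as not listed rather than as 0, and a bound used 5 counts per library (0.930 CPM in the uninjured group, 1.23 CPM at day 1). Of 14619 gene names, 12461 are symbols and 2158 Ensembl identifiers alone; 4 names that could not be matched between tables were left out.

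Counts were summed over all barcodes of a sample and tested with edgeR 4.0.16 in R 4.3.3 (filterByExpr, TMM, quasi-likelihood F test, Benjamini-Hochberg adjustment at 0.05 over the 12290 genes tested, biological coefficient of variation 0.0632). The count test was checked on simulated data, as was the thinning. An exact permutation test of 2 samples against 2 cannot go below a two-sided p of 0.333, so shares of barcodes carry no test. Replicates of a group differed by more than sampling noise (chi-square per degree of freedom of 1.87 uninjured and 4.77 at day 1), and 2 barcode sequences were shared between samples of the 2 groups.

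The 75 gene lists and 9 marker lists, and the members named, were chosen with earlier results of these data known. Genes were named by rule: of each list up to 4 called members with the largest change and no overlap between groups, the 15 highest and 15 lowest changes at an average log2 CPM of at least 5, and the 10 highest and 10 lowest among genes seen in most barcodes and among genes held by few. A further 75 genes, mostly partners of these in a pathway or complex, among them the PER, CRY and NR1D genes, NFIL3, MYC, CTSD, CTSV, SERPINE2, ADAM17, the integrin and LAMB3 subunits, GALNT3, B4GALT5, the sialyltransferases ST3GAL1 and ST3GAL4, JAK2, STAT3, SOCS3, the TRAIL receptors, BID, BCL2L1, CFLAR, CASP6, EPHA2, SEMA4A, SEMA4B, ETV1, ETV3, ETV5, FOXP1, FOXA1, MEIS2, OTX1, NR4A2, NR3C1 and PPARD, were chosen after their values were seen. The alternatives were DESeq2 1.42.0, library totals without TMM, no low-count filter, the 4 samples alone, the replicate number as a block, a test against 2-fold, each sample left out, barcodes under 500 counts or called doublets by Scrublet (scanpy 1.11.5) left out, barcodes weighted equally with limma 3.58.1, and thinning to 500 and 2000 counts. Unlisted genes set to 5 counts, and genes listed in all 6 libraries only, were added after seeing the data. Read and isoform data were not used here, and some genes are not reported here.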

Additional observations from a re-analysis of the deposited data

How the results depend on the processing

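The number of genes called, 7667, was 4641 with DESeq2 (2557 higher and 2084 lower) and 2010 against a 2-fold change (958 and 1052). With library totals alone 2382 genes were higher and with barcodes weighted equally 2420, as the scaling moved the median of all genes. Leaving out each of the 4 samples in turn gave 6548 to 7367 genes, 3338 to 3653 higher and 3210 to 3714 lower. The numbers of genes that rose and were seen in most barcodes, 111 at 1000 counts, were 47 at 500 and 229 at 2000, and of genes that fell 11 and 55 beside 32; 8 and 31 risen genes were held by few, beside 17. The counts with other settings stayed within 1.5 times.

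With the replicate number as a block 7301 genes were called, 3624 higher and 3677 lower, 7267 of them also called without it. Same-numbered samples did not deviate together (correlations of -0.0212, -0.00854 and -6.62e-05), so the numbers were not taken to pair the samples.

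Of 6053 values of 411 genes over all settings, 5749 kept their direction and their side of the threshold, 274 lost the call, 14 gained one and 16 changed sign. With library totals alone the sign changed for ITGA6 (-0.0945), ITGB4 (-0.0028), PFDN6 (-0.1227) and VARS1 (-0.1342), and with barcodes weighted equally for ITGB4 (-0.0054), LYZ (-0.0369), PFDN6 (-0.1119) and SEPTIN9 (-0.0169). With unlisted genes at 5 counts it changed for COL1A2 (-0.0926), SERPINB13 (0.0402) and NHP2 (0.0034). Leaving out a sample changed it for COL17A1 (-0.0762 to 0.0334), NHP2 (-0.0781 to 0.0613) and PFDN1 (-0.2728 to 0.0107). The fold moved by over 1.5 times for 35 genes when a sample was left out and for 122 with barcodes weighted equally. None of the reversed values passed the test. The cause was not tested. Counts of under about 5 per library could not be told from absence.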

Other observations

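Some genes of mucosal secretion were carried by very few barcodes and differed between the 2 day 1 samples. TFF1, a trefoil peptide of mucous cells, had 265 counts in 5 barcodes of day 1 replicate 1, 190 of them in a single barcode, and was not listed in replicate 2 or in the uninjured samples. ZG16, a secretory granule lectin, had 70 counts in 6 barcodes of day 1 replicate 1 and was likewise not listed elsewhere among the 4 samples. PIGR, which carries antibodies across mucosal epithelia, had 104 and 32 counts in 28 and 9 barcodes at day 1 and was not listed in the uninjured samples. S100P had 144 and 42 counts at day 1 beside 40 and 20 uninjured. For these genes a summed value reflects a handful of barcodes, and the number of such barcodes in a sample sets its precision.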
